A study of Mus musculus with 16 samples.

Results

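The comparison set mouse embryonic fibroblasts that lack Hmgb1 in S phase against the same kind of cells in G1. It rests on 5 of the 16 arrays of the series, the 2 arrays titled KO_S and the 3 titled KO_G1, taken by title alone. KO_S cells were Hmgb1-/- fibroblasts synchronised in S phase and KO_G1 cells were Hmgb1-/- fibroblasts in G1. The knockout was thus shared by both groups, and their labels differ in phase. The arrays also differed in sex markers, leukocyte markers and slide, as given below. The corresponding wild-type groups, Wt_S with 2 arrays and Wt_G1 with 3, are set beside them below. The other 6 arrays, of cycling cells of both genotypes, enter the normalization, the choice of probes, the estimate of the spread and the fits with a block. Knockout and wild-type cells were derived in pairs from embryos of 3 heterozygous mothers mated to heterozygous males, and were grown to passage 3. The series describes its replicates as biological, but which embryo or culture gave each array is not given in the sources used here, so the p-values measure the spread between these samples. The way the cells were synchronised, the age and sex of the embryos and any measure of how many cells were in the named phase are not given in the sources used here. Each array read RNA from a culture, so fewer cells of a type and less RNA per cell cannot be told apart.

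Before S phase, the MCM2-7 helicase is loaded onto replication origins, and during S phase it unwinds DNA ahead of the polymerases, which work with a sliding clamp, a clamp loader and a single-strand binding complex. Many genes for these proteins, for nucleotide supply and for G1 cyclins are controlled by E2F transcription factors, which the retinoblastoma protein restrains until cyclin-dependent kinases phosphorylate it. HMGB1 is a chromatin protein that binds DNA without sequence preference, and when released from cells it acts as an alarm signal. Fibroblasts also answer growth factors with changes in matrix, protease and cytokine genes.

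All values below are normalized log2 intensities. Differences are KO_S minus KO_G1 on that scale ± SE (n = 2 and 3 arrays), and a probe was called where the Benjamini-Hochberg adjusted p of limma's test, over all probes tested, was under 0.05. Of 25697 probes on the array, 12078 probes for 8428 genes passed the detection filter. Mean raw intensity was 580 and 654 on the KO_S arrays, against 394, 649 and 726 on the KO_G1 arrays, and the number of detected probes was 11902 and 11715 in KO_S, against 9970, 11351 and 10752 in KO_G1. KO_G1 replicate 1 stood apart: its correlation with another array of its group was as low as 0.881, whereas the 2 KO_S arrays correlated at 0.994. The arrays also differed in sex. The Y-linked gene Eif2s3y read 11.53 and 11.66 in KO_S, against 11.52, 4.39 and 4.40 in KO_G1, and the Xist probe ILMN_3123341 read 4.55 and 4.80 in KO_S, against 4.40, 7.23 and 7.22 in KO_G1. Eif2s3y was thus high on both KO_S arrays and KO_G1 replicate 1, and Xist on the other KO_G1 arrays, so that without KO_G1 replicate 1 phase and sex cannot be told apart. Of 3 Y-linked probes tested none was called. The single Hmgb1 probe read 4.91 and 4.59 in KO_S, against 4.79, 4.48 and 5.03 in KO_G1, was detected on none of these arrays, and cannot check the genotype label. KO_S and KO_G1 replicates 1 and 2 lay on slide 2, and KO_G1 replicate 3 lay on slide 1.

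Markers of another cell type followed the same division of the arrays. All 10 fibroblast markers on the array were detected on all 5 arrays, with a summed level of 82660 and 82152 intensity units in KO_S, against 90377, 62027 and 64612 in KO_G1. All 6 leukocyte markers on the array were detected on both KO_S arrays and on KO_G1 replicate 1, and 4 of them on KO_G1 replicates 2 and 3. Their summed level was 34310 and 31337 in KO_S, against 36961, 9910 and 9649 in KO_G1. The Fc receptor chain Fcer1g read 9.74 and 9.58 in KO_S, against 9.28, 4.38 and 4.36 in KO_G1, and the macrophage marker Adgre1 read 11.54 and 11.51 in KO_S, against 12.02, 8.69 and 9.06 in KO_G1. None of the 6 passed the test of S against G1. Their median log2 difference was 1.06, with all 6 positive. It was 1.65 without KO_G1 replicate 1 and -0.11 with sex as a block. The adipocyte list had a sum of 3093 and 3400 in KO_S, against 2965, 769 and 768 in KO_G1, which followed Lpl at 11.50 and 11.66 in KO_S, against 11.41, 9.23 and 9.18 in KO_G1. Of the 6 adipocyte markers 4 were not detected on any array, among them Adipoq and Fabp4. Epithelial, endothelial, neuronal and erythroid lists summed to at most 457 on every array, and Pecam1, Cdh5, Krt5 and Hba-a1 were not detected on any of them. Emcn, Esam, Eng and Stmn2 of these lists were detected on every array but KO_G1 replicate 1. The skeletal muscle and chondrocyte lists summed to at most 982, with Myod1 and Acan not detected. Their Acta1, Des, Col2a1 and Sox9 were detected on all 5 arrays. Col2a1 read 7.37 and 7.09 in KO_S, against 6.13, 9.48 and 9.18 in KO_G1, and Des 7.33 and 7.33, against 7.23, 9.09 and 9.11. The part of other cell types or of sex in the results below was not tested. Without KO_G1 replicate 1 leukocyte markers and sex both follow phase, so the values without that array cannot show their part. Values with sex as a block are given as an alternative fit.

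**Figure D1:**
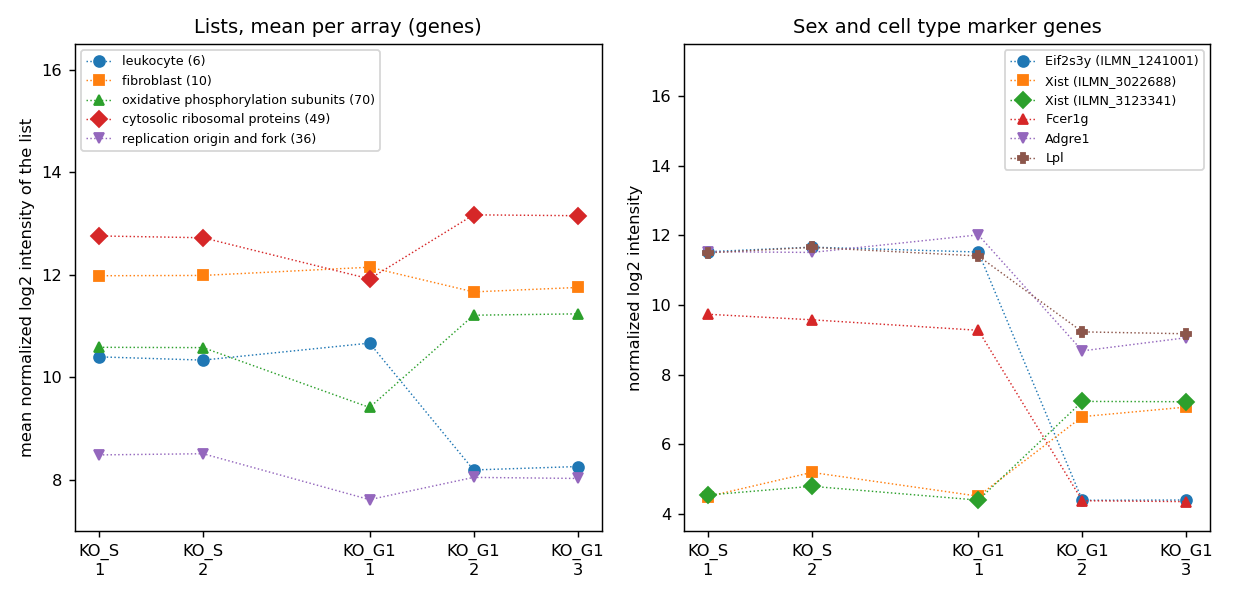
Left, mean normalized log2 intensity of 5 gene lists on each array (number of genes in brackets); right, normalized log2 intensity of sex and cell type marker genes. KO_S arrays stand left and KO_G1 arrays right; dotted lines only join points of 1 list or gene. Leukocyte markers and Eif2s3y were high on both KO_S arrays and KO_G1 replicate 1 and low on KO_G1 replicates 2 and 3, and the mean of the oxidative phosphorylation list was 10.59 and 10.58 on the KO_S arrays, against 9.42 on KO_G1 replicate 1.

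KO_S cells had more mRNA than KO_G1 cells for subunits of the replicative helicase, for cyclin D1 and E2f1, for the glycolytic enzymes Pkm and Ldha and for the secreted factors Fgf10 and Inhbb. They had less for the imprinted gene Mest, for the metalloproteinases Mmp3 and Mmp13 and for the matrix protein Tgfbi. The largest called rise was that of the quinone reductase Nqo1, 6.55-fold, and Mest was 8.99-fold lower. In all, 216 probes (1.79% of the probes tested) passed an adjusted p under 0.05 in KO_S against KO_G1. Of these 93 (0.77%) were higher and 123 (1.02%) lower in KO_S, and they read 178 named genes, 81 higher and 97 lower. The KO_S and KO_G1 arrays did not overlap on any of the 216 probes, while over all probes tested 33% did not overlap. A difference of 2-fold or more was seen on 174 of them. The smallest was 0.74 and the largest 4.50 log2 units in size. Of 58 called genes that were read by over 1 tested probe, 55 had all their probes on the same side, but only 18 had all of them called. Of the 216, 9 were X-linked. The share of X-linked probes over all probes tested was not counted, so this count does not bear on sex. With the arrays scaled to their medians in place of quantile normalization, 71 probes were higher and 172 lower.

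The number of calls depended on single arrays. Without KO_G1 replicate 1 the count was 862 (7.14%), with 438 higher (3.63%) and 424 lower (3.51%), and all 216 probes were among them. It was 9 without KO_S replicate 1, 1 without KO_S replicate 2, 101 without KO_G1 replicate 2 and 106 without KO_G1 replicate 3. With sex as a block, 396 probes were called (3.28%), 222 higher (1.84%) and 174 lower (1.44%), with 183 of the 216 among them. With slide as a block 122 were called and on slide 2 alone 1. All 216 probes kept their direction with sex or slide as a block. On slide 2 alone and without KO_G1 replicate 1 the direction was fixed in advance, since the groups did not overlap on any of the 216 probes. Of the 58 called probes named by rule, 5 remained called without KO_S replicate 1 and 1 without KO_S replicate 2, so that the calls below rest on both arrays of KO_S.

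Among the 27 gene lists, cell type markers aside, genes of the replication origin and fork had the highest median with all 5 arrays. Of 36 tested genes 6 were called higher and none lower, the median log2 difference was 0.74, and the median of all genes tested was 0.05, with 81 of 8428 called higher. Among the cell type markers, the leukocyte list had a higher median, 1.06. On 23 of the 36 genes both KO_S arrays lay above every KO_G1 array, and on 1 both lay below, while over all genes tested 1551 of 8428 lay above every KO_G1 array and 1302 below (18.4% and 14.6% of probes). Without KO_G1 replicate 1 the median of the replication list was 0.499 with 11 genes called higher. This was below the medians of p53 targets (0.54), of growth arrest genes and FoxO targets (0.54) and, narrowly, of nucleotide supply (0.501). With sex as a block the median of the replication list was 0.77 with 7 called higher. The mean of the list was 8.49 and 8.51 in KO_S, against 7.62, 8.05 and 8.03 in KO_G1.

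Promoter sequence was examined for the called genes of this list, since E2F factors bind there. In the 250 bases before the start of transcription, the E2F letters TTTCCCGC, TTTGGCGC or TTTGGCGG on either strand were present in 4 of the 5 called genes with a promoter in the RefSeq table (GRCm38.p6), Mcm5, Mcm7, Rpa1 and Clspn, and not in Mcm2. The same letters were in 8 of 30 promoters of tested genes of the list (26.7%), in 239 of 6869 promoters of all genes tested (3.48%) and in 538 of 27025 promoters in the table (1.99%). Among genes called higher they were in 7 of 67 (10.4%), and among genes called lower in 1 of 76 (1.32%). CCAAT letters were more frequent everywhere, in 37 of 67 promoters of genes called higher (55.2%), 31 of 76 of genes called lower (40.8%) and 41.2% of promoters of genes tested. The windows around the E2F letters are given below on the strand of the gene, 5′ to 3′, with the matched letters in capitals; all 4 read the motif on the other strand. The matched letters began at position -149 from the start for Mcm5 (chr8:75109340-75109387, plus strand), -165 for Mcm7 (chr5:138172021-138172068, minus strand), -217 for Rpa1 (chr11:75348573-75348620, minus strand) and -121 for Clspn (chr4:126556839-126556886, plus strand).
Mcm5: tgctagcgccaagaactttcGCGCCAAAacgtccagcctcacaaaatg
Mcm7: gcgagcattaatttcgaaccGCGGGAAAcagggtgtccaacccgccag
Rpa1: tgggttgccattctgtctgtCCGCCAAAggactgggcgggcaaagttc
Clspn: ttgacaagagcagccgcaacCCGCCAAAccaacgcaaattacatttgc
A second start listed for Mcm7 held none of these letters. The promoters of E2f1, Spc25, Tcf19 and Spdl1, genes called higher outside this list, held none either. A match is a description of the letters and not of a bound site.

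Among the helicase subunits, Mcm5 read 10.21 and 10.28 in KO_S, against 9.34, 9.26 and 9.30 in KO_G1, a difference of 0.95 ± 0.18 (adjusted p = 0.0237). Mcm2 read 8.11 and 7.98 in KO_S, against 7.43, 6.94 and 6.62 in KO_G1 (1.05 ± 0.24, adjusted p = 0.0468). Both groups were tight for Mcm5, and for Mcm2 the G1 array nearest to the KO_S values was replicate 1. Mcm7 read 6.03 and 5.78 in KO_S, against 4.54, 5.17 and 4.75 in KO_G1 and was not well above background on any KO_G1 array, so its level in KO_S was at least 1.17-fold higher (adjusted p = 0.0326). Mcm3, Mcm4 and Mcm6, the other subunits, did not pass. Mcm6 read 10.28 and 10.33 in KO_S, against 10.42, 8.80 and 8.89 in KO_G1, with KO_G1 replicate 1 as high as KO_S and the other G1 arrays lower, and its log2 difference of 0.94 (adjusted p = 0.241) became 1.46 (adjusted p = 0.00575) without that array.

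At the fork, Pole, the catalytic subunit of the leading-strand polymerase, read 7.11 and 7.13 in KO_S, against 6.53, 5.80 and 5.67 in KO_G1 (1.12 ± 0.25, adjusted p = 0.0392), and with sex as a block its adjusted p was 0.0519. Clspn, which carries the checkpoint signal from stalled forks to Chk1, read 8.72 and 8.91 in KO_S, against 8.15, 7.68 and 7.70 in KO_G1 (0.97 ± 0.23, adjusted p = 0.0494). Rpa1, the large subunit of the single-strand binding complex and outside the naming rule, read 12.62 and 12.67 in KO_S, against 12.20, 11.49 and 11.43 in KO_G1 (0.94 ± 0.22, adjusted p = 0.0468, or 0.0648 with sex as a block). On these 3 genes KO_G1 replicate 1 lay between KO_S and the other G1 arrays. The sliding clamp Pcna read 8.07 and 8.11 in KO_S, against 7.35, 6.95 and 7.94 in KO_G1 and did not pass (0.68 ± 0.32, adjusted p = 0.307), with KO_G1 replicate 3 close to the KO_S values. Cdt1, which loads the helicase in G1, had the lowest log2 difference of the list at -0.59 (adjusted p = 0.265), with 8.92 and 8.91 in KO_S, against 9.27, 9.53 and 9.73 in KO_G1. The other members of the list that were not called lay between -0.33 and 1.02.

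**Figure D2:**
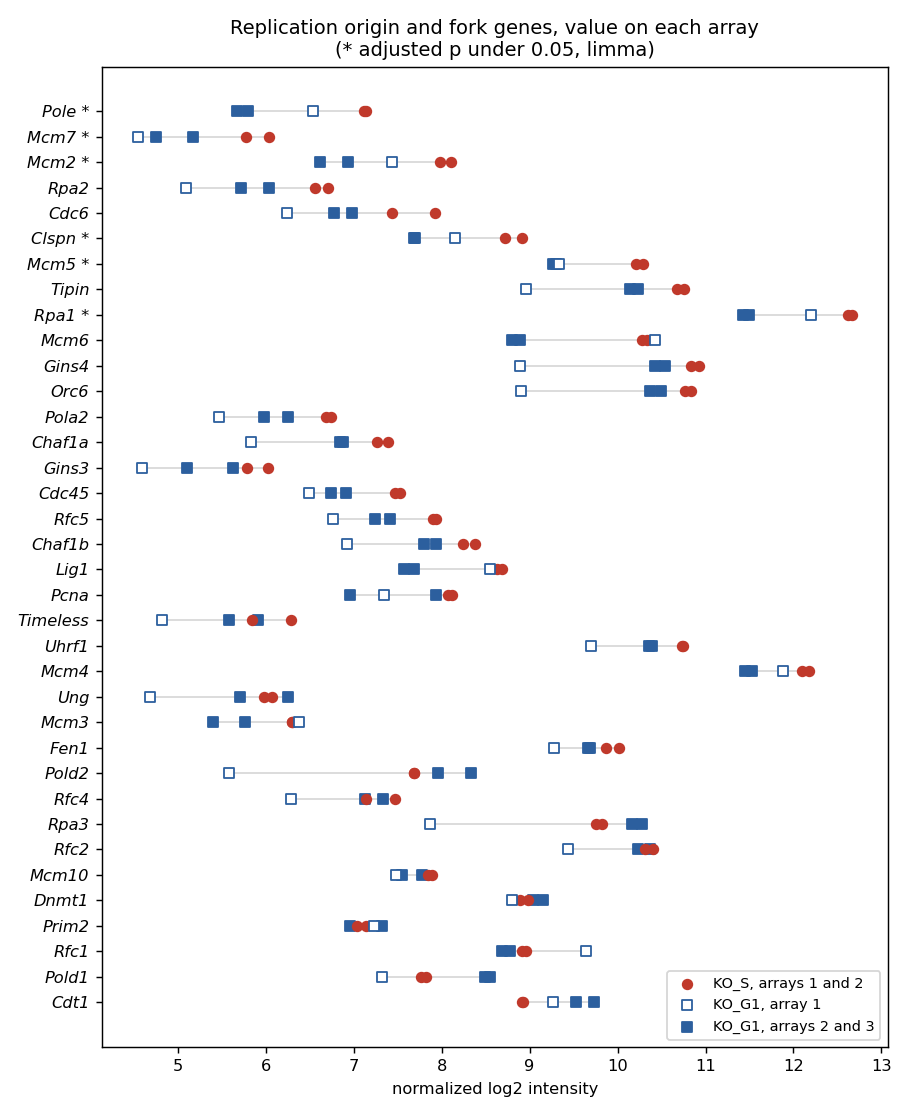
Normalized log2 intensity (horizontal axis) of each tested gene of the replication origin and fork list on the KO_S arrays (filled circles) and the KO_G1 arrays (squares, replicate 1 open), ordered by log2 difference. The 6 genes marked with an asterisk passed an adjusted p under 0.05, and on several genes below them KO_G1 replicate 1 lies far from the other G1 arrays.

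None of the 14 tested genes of nucleotide supply passed, and their median log2 difference was 0.56. Tk1, the thymidine salvage kinase, read 8.77 and 8.74 in KO_S, against 6.56, 7.98 and 7.62 in KO_G1, and its log2 difference of 1.36 just missed the threshold (adjusted p = 0.0504). Rrm2, the regulated subunit of ribonucleotide reductase, read 9.38 and 9.16 in KO_S, against 7.58, 8.54 and 8.47 in KO_G1 (1.08 ± 0.37, adjusted p = 0.153). Mthfd1, a folate enzyme, read 8.71 and 8.81 in KO_S, against 8.16, 7.94 and 7.77 in KO_G1 (0.80 ± 0.22, adjusted p = 0.083). Each of the 3 lay higher on both KO_S arrays than on every KO_G1 array. The list had 4 genes called higher without KO_G1 replicate 1.

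Among cyclins, E2F factors and inhibitors, 2 of 23 tested genes were called higher and none lower, with a median of 0.17. Ccnd1, the D-type cyclin that links growth signals to Cdk4 and Cdk6, read 13.11 and 12.94 in KO_S, against 11.58, 11.99 and 12.03 in KO_G1 on its brightest probe (1.16 ± 0.23, adjusted p = 0.0268). A second probe was called at 1.20 (adjusted p = 0.0326), and the other tested probe missed the threshold at 1.32 (adjusted p = 0.0724). E2f1, the activating E2F factor, read 9.80 and 9.92 in KO_S, against 8.55, 8.96 and 8.92 in KO_G1 (1.05 ± 0.23, adjusted p = 0.0419). Ccnd1 and E2f1 were thus higher on each KO_S array than on any KO_G1 array.

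The E-type cyclins, partners of Cdk2 at the start of S phase, lay higher on both KO_S arrays without passing. Ccne1 read 6.98 and 7.05 in KO_S, against 4.63, 6.03 and 6.17 in KO_G1 (1.40 ± 0.43, adjusted p = 0.111), and Ccne2 read 7.57 and 7.64 in KO_S, against 6.18, 6.75 and 6.53 in KO_G1 (1.12 ± 0.28, adjusted p = 0.0618). With sex as a block, Ccne1 had an adjusted p of 0.00381 and Ccne2 of 0.0201. The inhibitor Cdkn1a, a p53 target, read 13.91 and 13.97 in KO_S, against 13.03, 13.33 and 13.41 in KO_G1 (0.69 ± 0.19, adjusted p = 0.083). Ccna2 and Cdkn1b were not detected on these 5 arrays, so neither was tested. Ccnb1 and Mki67 are not analysed here.

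Of 30 tested genes of G2 and mitosis 1 was called higher, and the median was 0.14, or -0.01 without KO_G1 replicate 1. The called gene was Spc25, a subunit of the Ndc80 kinetochore complex. It read 9.51 and 9.62 in KO_S, against 6.76, 8.05 and 8.20 in KO_G1, a difference of 1.90 ± 0.36 (adjusted p = 0.0237), and its other tested probe was called at 1.63. KO_G1 replicate 1 was the lowest of the G1 arrays for Spc25, and without it the difference was 1.45. Cdk1, the mitotic kinase, read 10.20 and 10.25 in KO_S, against 7.83, 9.87 and 9.74 in KO_G1 (1.08 ± 0.45, adjusted p = 0.241). Top2a, the topoisomerase of chromosome segregation, read 8.27 and 8.44 in KO_S, against 8.31, 7.75 and 7.57 in KO_G1 and its groups overlapped (0.48 ± 0.34, adjusted p = 0.519). Without KO_G1 replicate 1, far the lowest array for Cdk1, its difference was 0.42.

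Core and linker histone genes, whose replication-dependent mRNAs end in a stem-loop in place of a poly(A) tail, had no call among 39 tested genes. Their median log2 difference was 0.22 with KO_G1 replicate 1 and -0.20 without it, and the mean of the list was 8.93 and 8.98 in KO_S, against 7.70, 9.28 and 9.30 in KO_G1. Replicate 1 was thus the lowest and the other G1 arrays the highest of the 5. H3c14 read 6.55 and 6.24 in KO_S, against 4.67, 5.57 and 5.85 in KO_G1 (1.03 ± 0.31, adjusted p = 0.108). H2ac6 read 6.19 and 6.49 in KO_S, against 4.76, 5.26 and 5.44 in KO_G1, was not well above background on any KO_G1 array, and did not pass (adjusted p = 0.182). Among 11 variant histones and chaperones, Nap1l1, a chaperone of H2A and H2B, was called at 12.69 and 12.83 in KO_S, against 12.06, 11.66 and 11.67 in KO_G1 (0.96 ± 0.23, adjusted p = 0.0487), while its second probe differed by -0.11 (adjusted p = 0.93). None of 6 tested HMG genes passed. Hmgn1 read 13.62 and 13.69 in KO_S, against 12.87, 13.41 and 13.48 in KO_G1 (0.40 ± 0.20, adjusted p = 0.331) and Hmgn3 read 11.83 and 11.86 in KO_S, against 9.98, 11.66 and 11.73 in KO_G1 (0.72 ± 0.40, adjusted p = 0.391), both nucleosome-binding proteins, and the groups lay closer together without KO_G1 replicate 1.

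The largest rises were in genes of several functions. Nqo1, a quinone reductase and target of the oxidative stress factor Nrf2, read 9.59 and 9.65 in KO_S, against 5.95, 7.69 and 7.09 in KO_G1 (2.71 ± 0.39, adjusted p = 0.00463; detected on 2 of 3 KO_G1 arrays), a 6.55-fold difference. It was the single call among 17 Nrf2 and antioxidant genes (median 0.34). Dbp, a clock output factor, read 8.69 and 8.67 in KO_S, against 5.61, 6.17 and 6.35 in KO_G1 (2.63 ± 0.40, adjusted p = 0.00604; detected on 2 of 3 KO_G1 arrays). For both genes each KO_S array lay above every KO_G1 array, and KO_G1 replicate 1 was the lowest.

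Among the other large rises, Grem1, an antagonist of BMP ligands, read 9.998 and 9.92 in KO_S, against 6.42, 8.10 and 7.96 in KO_G1 (2.47 ± 0.58, adjusted p = 0.0474). Fgf10, a growth factor that mesenchyme sends to epithelium, read 9.39 and 9.45 in KO_S, against 8.78, 6.95 and 6.84 in KO_G1 (1.90 ± 0.41, adjusted p = 0.0377) and was called on all 3 of its probes. Inhbb, the activin B subunit, read 9.05 and 9.25 in KO_S, against 8.14, 7.27 and 7.39 in KO_G1 (1.55 ± 0.36, adjusted p = 0.0461). KO_G1 replicate 1 was the lowest array for Grem1 and the highest G1 array for Fgf10 and Inhbb. With sex as a block, the adjusted p was 0.0514 for Grem1 and 0.0517 for this probe of Fgf10. The neuropeptide Vip read 7.09 and 7.08 in KO_S, against 4.56, 5.17 and 5.01 in KO_G1, lay below the background limit on all KO_G1 arrays, and its level in KO_S was at least 2.65-fold higher (adjusted p = 0.00132). Uts2b, a urotensin peptide, read 6.76 and 7.16 in KO_S, against 4.52, 5.77 and 5.84 in KO_G1 (1.58 ± 0.32, adjusted p = 0.0276; detected on 2 of 3 KO_G1 arrays).

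Vcam1, the adhesion molecule that leukocytes bind, read 11.06 and 11.10 in KO_S, against 10.23, 8.88 and 8.80 in KO_G1 (1.77 ± 0.34, adjusted p = 0.0252). Pml, the organiser of PML nuclear bodies, read 10.33 and 10.21 in KO_S, against 9.11, 8.44 and 8.21 in KO_G1 (1.68 ± 0.28, adjusted p = 0.00891). Phgdh, the first enzyme of serine synthesis, read 10.15 and 9.71 in KO_S, against 8.33, 8.25 and 8.48 in KO_G1 (1.58 ± 0.25, adjusted p = 0.008). The G1 arrays lay together for Phgdh, and replicate 1 lay above the other G1 arrays for Vcam1 and Pml, as it did for the leukocyte markers. Whether leukocytes had a part in the Vcam1 and Pml values was not tested. Rnf167, a ubiquitin ligase, differed by 1.84 ± 0.37 (adjusted p = 0.0276), Dipk1b by 1.81 ± 0.38 (adjusted p = 0.034) and Mapk1ip1 by 1.78 ± 0.29 (adjusted p = 0.00891), with signal above background on 2, 1 and 2 of the 3 KO_G1 arrays. Cdk5rap1, which modifies mitochondrial tRNA, lay below the background limit on all KO_G1 arrays and was at least 1.68-fold higher (adjusted p = 0.0341), while its other probes differed by 0.48 and 0.14 without passing.

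The largest fall was that of Chodl, a membrane C-type lectin. It read 5.21 and 5.65 in KO_S, against 10.82, 9.49 and 9.49 in KO_G1, a log2 difference of -4.50 ± 0.81 (adjusted p = 0.019) and a 22.7-fold lower level, with signal above background on 1 of the 2 KO_S arrays. Mest, an imprinted gene expressed from the paternal allele, read 5.60 and 5.48 in KO_S, against 9.01, 8.42 and 8.70 in KO_G1 (-3.17 ± 0.39, adjusted p = 0.0025), and its other probes fell by 3.14 and 3.11. Fibcd1, a receptor with a fibrinogen-like domain that binds acetylated sugars, read 8.69 and 8.67 in KO_S, against 11.26, 11.81 and 11.59 in KO_G1 (-2.88 ± 0.27, adjusted p = 0.000642). Lmcd1, a LIM-domain cofactor, read 8.84 and 8.78 in KO_S, against 11.06, 11.05 and 10.997 in KO_G1 (-2.22 ± 0.23, adjusted p = 0.0013), and its other probes both fell by 2.17. The G1 arrays of Lmcd1 lay close together, replicate 1 included.

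Among the next largest falls, Flrt3, a leucine-rich adhesion and guidance protein, read 5.35 and 5.41 in KO_S, against 7.51, 7.97 and 7.33 in KO_G1 (-2.22 ± 0.29, adjusted p = 0.00262), with all 3 probes called. Tgfbi, a matrix protein induced by TGF-beta, read 7.58 and 7.50 in KO_S, against 9.60, 9.88 and 9.74 in KO_G1 (-2.20 ± 0.28, adjusted p = 0.00262), and a second probe fell by 1.85. Tenm4, a teneurin of cell contacts, read 6.06 and 5.86 in KO_S, against 8.69, 7.74 and 7.54 in KO_G1 (-2.03 ± 0.44, adjusted p = 0.0378). Both KO_S arrays lay below every KO_G1 array on these probes. Cd69, an activation antigen of lymphocytes, read 6.64 and 6.91 in KO_S, against 8.12, 9.08 and 9.10 in KO_G1 (-1.99 ± 0.45, adjusted p = 0.0444), and was lower on KO_G1 replicate 1 than on the other G1 arrays. The part of leukocytes in the Cd69 values was not tested.

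Adarb1, an RNA adenosine deaminase, read 8.50 and 8.48 in KO_S, against 10.37, 10.47 and 10.45 in KO_G1 (-1.94 ± 0.27, adjusted p = 0.00431), and Abhd2, a lipid hydrolase, read 6.68 and 6.83 in KO_S, against 8.89, 8.71 and 8.67 in KO_G1 (-2.001 ± 0.25, adjusted p = 0.00262). The MAP kinase phosphatase Dusp2 differed by -1.88 ± 0.43 (adjusted p = 0.0463) and N4bp2 by -1.82 ± 0.34 (adjusted p = 0.0237), each detected on 1 of 2 KO_S arrays. Wwc1, a regulator of the Hippo pathway, read 4.95 and 5.04 in KO_S, against 6.71, 6.96 and 6.91 in KO_G1. It was not well above background on either array of KO_S and was at least 2.97-fold lower (adjusted p = 0.0268). Of the 8 called probes without a symbol, ILMN_2881050 and ILMN_2602581 had the largest rises, 1.37 and 0.98. ILMN_1225528 and ILMN_2757617 had the largest falls, -1.64 and -1.34. The last of these was a bright probe, at 13.01 and 13.06 in KO_S, against 14.63, 14.25 and 14.25 in KO_G1.

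**Figure D3:**
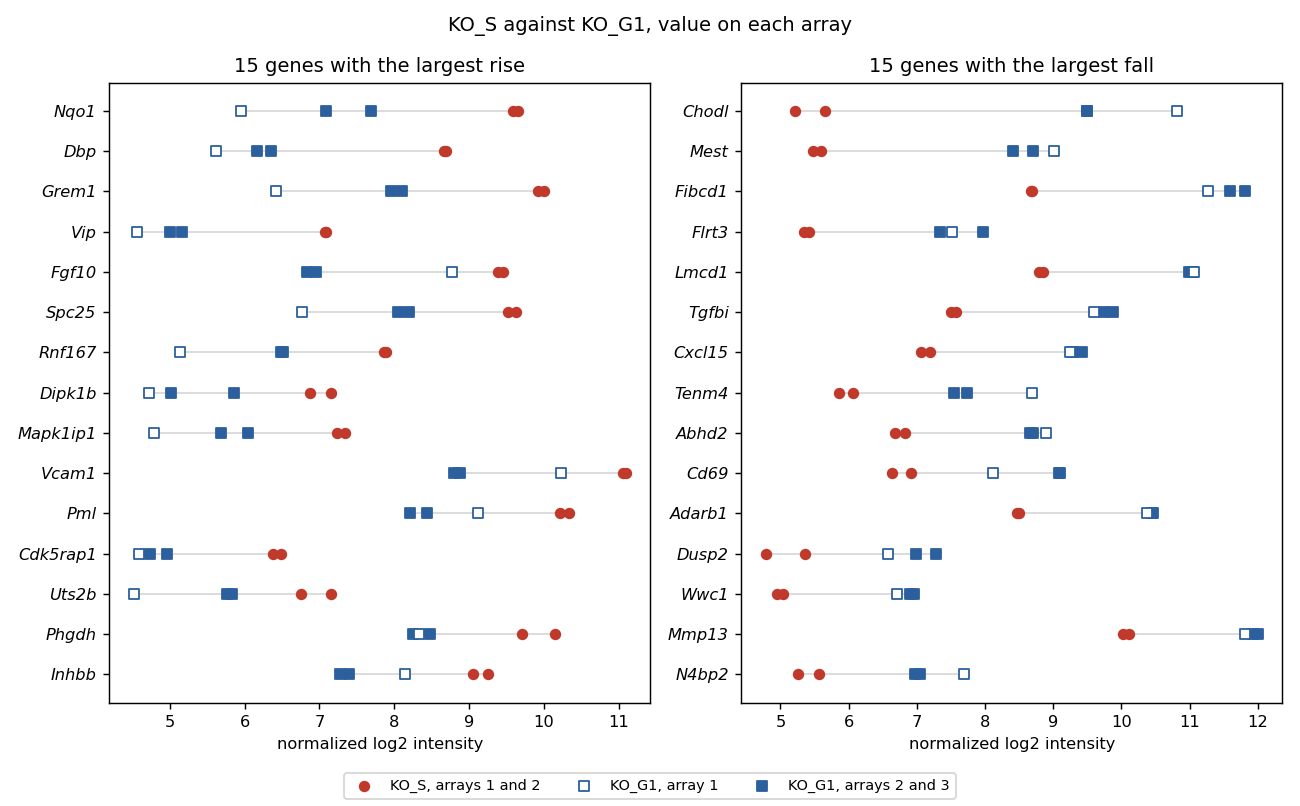
Normalized log2 intensity (horizontal axis) of the 15 genes with the largest rise (left) and the 15 with the largest fall (right) on the KO_S arrays (filled circles) and the KO_G1 arrays (squares, replicate 1 open). The groups do not overlap on any of these probes, and replicate 1 is the KO_G1 array farthest from KO_S for genes such as Grem1 and Chodl and the nearest for Fgf10 and Vcam1.

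Matrix proteases and their inhibitors gave 2 genes called lower among 17 tested (median -0.11). Mmp13, a collagenase, read 10.02 and 10.11 in KO_S, against 11.82, 11.92 and 12.001 in KO_G1 (-1.85 ± 0.43, adjusted p = 0.0463, or 0.066 with sex as a block). Mmp3, stromelysin, was called on all 3 of its probes, the brightest of which read 9.22 and 9.39 in KO_S, against 10.36, 10.79 and 10.87 in KO_G1 (-1.36 ± 0.25, adjusted p = 0.0197). For both genes the KO_S arrays lay below every KO_G1 array. None of 39 tested extracellular matrix genes passed. The members with the smallest p were Col6a2, a collagen VI chain, at 9.46 and 9.56 in KO_S, against 10.26, 10.39 and 10.10 in KO_G1 (-0.74 ± 0.19, adjusted p = 0.0662), and Mfap2, a microfibril protein, at 9.88 and 9.79 in KO_S, against 10.34, 11.57 and 11.57 in KO_G1 (-1.32 ± 0.35, adjusted p = 0.0727).

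Among chemokines and NF-kB targets, 2 of 26 genes were called higher and 1 lower (median -0.23). The cytokine Il6 read 7.51 and 7.51 in KO_S, against 5.40, 6.04 and 6.59 in KO_G1 (1.498 ± 0.33, adjusted p = 0.0381; detected on 2 of 3 KO_G1 arrays), Vcam1 is given above, and the chemokine Cxcl15 read 7.07 and 7.20 in KO_S, against 9.25, 9.42 and 9.29 in KO_G1 (-2.19 ± 0.36, adjusted p = 0.00864). Il6 and Vcam1 thus moved against Cxcl15. Il6 was lowest on KO_G1 replicate 1, and the leukocyte list was high on that array and on both KO_S arrays. The part of leukocytes in the Il6 values was not tested. None of 19 interferon response genes passed. Tap1, the peptide transporter of antigen presentation, read 5.97 and 5.86 in KO_S, against 4.78, 4.91 and 5.15 in KO_G1, was not well above background on any KO_G1 array and had a bound of at least 1.18-fold higher without passing (adjusted p = 0.0549), and Irf1 read 10.14 and 9.98 in KO_S, against 9.66, 9.34 and 9.26 in KO_G1 (0.64 ± 0.25, adjusted p = 0.198).

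Growth signalling genes moved in both directions. Igfbp5, an IGF-binding protein, read 9.48 and 9.52 in KO_S, against 11.09, 11.37 and 11.41 in KO_G1 (-1.79 ± 0.29, adjusted p = 0.00796), and Igf2r, the receptor that clears IGF2, read 10.30 and 10.18 in KO_S, against 11.69, 11.10 and 10.84 in KO_G1 (-0.97 ± 0.22, adjusted p = 0.0445). These were the calls among 21 TGF-beta and IGF genes. In the list of growth arrest genes and FoxO targets, 1 of 18 was called higher and 1 lower. Txnip, an inhibitor of thioredoxin and glucose uptake, read 10.53 and 10.40 in KO_S, against 9.74, 8.78 and 8.75 in KO_G1 (1.37 ± 0.28, adjusted p = 0.0318), and Irs2, the insulin receptor substrate, read 7.74 and 7.30 in KO_S, against 9.71, 9.37 and 8.90 in KO_G1 (-1.80 ± 0.25, adjusted p = 0.00394). Of 20 immediate early genes none passed and 16 had a negative difference (median -0.33), with Klf4 at -0.94 ± 0.23 (adjusted p = 0.0579) and Zfp36 at -0.89 ± 0.23 (adjusted p = 0.0669). Of the 20, 5 were called lower without KO_G1 replicate 1.

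Among p53 targets 2 of 19 genes were called higher (median 0.41). The death receptor Fas read 10.69 and 10.84 in KO_S, against 9.25, 9.61 and 9.58 in KO_G1 (1.29 ± 0.29, adjusted p = 0.0408), and Ei24 read 11.07 and 11.08 in KO_S, against 10.34, 9.87 and 9.99 in KO_G1 (1.01 ± 0.21, adjusted p = 0.0308). The count without KO_G1 replicate 1 was 7. None of 16 DNA repair genes passed, with Apex1, the abasic site endonuclease, at 10.30 and 10.35 in KO_S, against 9.06, 9.29 and 9.13 in KO_G1 (1.17 ± 0.28, adjusted p = 0.0535) and Ddb2 not well above background on any KO_G1 array (adjusted p = 0.188).

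Metabolic lists differed in direction. Of 20 tested genes of glycolysis and hypoxia 2 were called higher, Pkm and Ldha, the enzymes that make and reduce pyruvate. Pkm read 13.77 and 13.59 in KO_S, against 12.39, 12.54 and 12.70 in KO_G1 (1.14 ± 0.21, adjusted p = 0.0213) and Ldha read 13.43 and 13.40 in KO_S, against 12.28, 12.61 and 12.50 in KO_G1 (0.95 ± 0.18, adjusted p = 0.0237). Hk2, hexokinase, and Vegfa, a hypoxia target, lay on the other side without passing, at -0.97 (adjusted p = 0.083) and -0.94 (adjusted p = 0.0611); both were picked after their values were seen. Sterol and fatty acid synthesis had a median of -0.54 over 26 genes. On 16 of them both KO_S arrays lay below every KO_G1 array, as did 1302 of all 8428 genes. Only Idi1, isopentenyl diphosphate isomerase, was called, at 6.90 and 7.64 in KO_S, against 8.63, 8.21 and 9.13 in KO_G1 (-1.38 ± 0.32, adjusted p = 0.0463, or 0.0626 with sex as a block). Without KO_G1 replicate 1 the median was -0.52 with 5 genes called lower, and with sex as a block -0.34.

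In ribosome biogenesis 2 of 20 genes were called lower, the nucleolar proteins Rrp1b, at 8.24 and 8.32 in KO_S, against 9.40, 9.51 and 9.27 in KO_G1 (-1.11 ± 0.17, adjusted p = 0.00596), and Pes1, at 9.49 and 9.54 in KO_S, against 10.73, 10.27 and 10.43 in KO_G1 (-0.96 ± 0.22, adjusted p = 0.0461, or 0.0607 with sex as a block), with a list median of -0.23. A second probe of Rrp1b differed by -1.12 without passing (adjusted p = 0.0848). Cytosolic ribosomal proteins had no call among 49 genes, with a median of -0.03, or -0.41 without KO_G1 replicate 1. Subunits of oxidative phosphorylation had none among 70, with medians of -0.09 and -0.70. The mean of this list was 10.59 and 10.58 in KO_S, against 9.42, 11.21 and 11.24 in KO_G1, so that KO_G1 replicate 1 was the lowest and the other G1 arrays the highest of the 5. Rps19, Rps2 at 0.68 ± 0.35 (adjusted p = 0.352), Uqcrc2 at 0.52 ± 0.20 (adjusted p = 0.192) and Atp5a1 at 0.63 ± 0.24 (adjusted p = 0.201) had the smallest p of these lists. The Rps19 probe, with KO_S not well above background, was at least 1.49-fold lower (adjusted p = 0.15) and was not the brightest of its gene. Over the brightest probes of cytosolic ribosomal proteins the lowest log2 difference was -0.57.

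Of 13 circadian clock genes 3 were called higher, Dbp, Nr1d2 and Per3, while the median was -0.02. Nr1d2, a nuclear receptor of the clock, was at least 1.14-fold higher on one probe (adjusted p = 0.0477), with KO_G1 not well above background, and its brighter probe differed by 0.27 (adjusted p = 0.787). Per3 read 5.48 and 5.39 in KO_S, against 4.75, 4.45 and 4.51 in KO_G1, with no KO_G1 array well above background (adjusted p = 0.0487, or 0.0672 with sex as a block). The calls for Nr1d2 and Per3 thus stood on dim probes. The amino acid and ER chaperone list had 1 call, Phgdh, among 24 genes. Heat shock genes (12 tested; Hspa1a at 0.94 ± 0.34, adjusted p = 0.178, Dnajb1 at -0.53 ± 0.20, adjusted p = 0.183), actin and smooth muscle genes (18 tested; Tagln at 0.94 ± 0.34, adjusted p = 0.169, Acta2 at 0.90 ± 0.37, adjusted p = 0.233) and Wnt and Notch genes (21 tested) had none. In the last list the Wnt target Ccn5 read 12.52 and 12.54 in KO_S, against 10.99, 8.85 and 9.36 in KO_G1 (2.80 ± 0.76, adjusted p = 0.0792), with a wide spread between G1 arrays, and Notch1 read 8.84 and 8.79 in KO_S, against 9.95, 9.65 and 9.96 in KO_G1 (-1.04 ± 0.26, adjusted p = 0.0644).

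**Figure D4:**
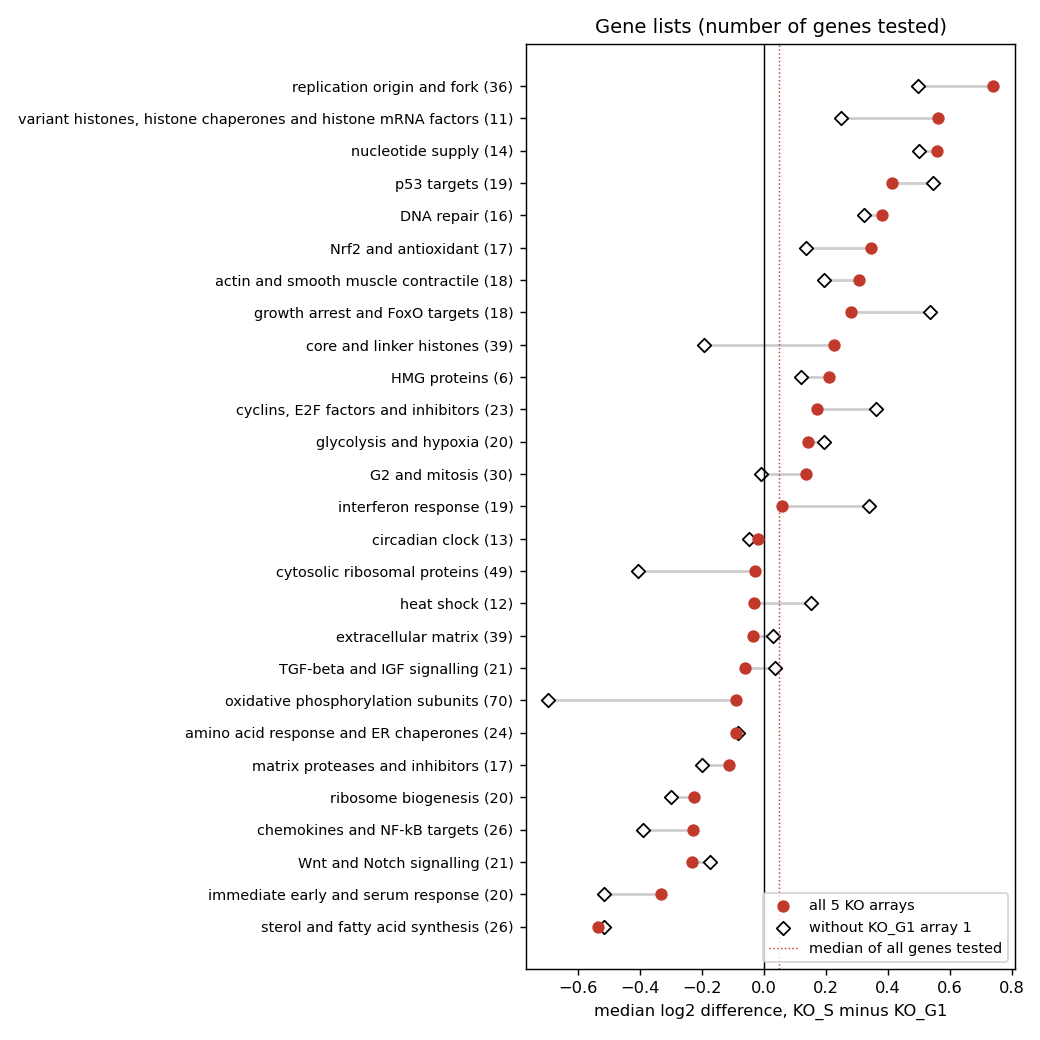
Median log2 difference of KO_S minus KO_G1 (horizontal axis) for each gene list, with the number of genes tested in brackets. Filled circles use all 5 arrays, open diamonds leave out KO_G1 replicate 1, and the dotted line is the median of all genes tested; the median of replication genes was 0.74 and 0.50, and that of oxidative phosphorylation genes -0.09 and -0.70.

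Wild-type cells showed most of the same directions. In Wt_S against Wt_G1, 209 probes were called (1.73%), 98 higher (0.811%) and 111 lower (0.919%). This comparison shares no array with the knockout one, but the slides were divided alike and the spread was shared. KO_G1 replicate 1 and Wt_G1 replicate 1 also deviated from their group means together (r = 0.42). The wild-type count was 0 without either of the Wt_S arrays (882 and 860 at an unadjusted p under 0.05, limma), 531 without Wt_G1 replicate 1, 48 without replicate 2 and 32 without replicate 3. Of the 216 probes called in the knockout 214 had the same sign in the wild type and 83 were also called there, which is 38.4% of the knockout calls and 39.7% of the wild-type calls. Over all probes tested the knockout and wild-type differences correlated at 0.76 (Pearson), so a shared direction was not limited to the called probes. The Wt arrays had the same division of sex: Eif2s3y read 11.18 and 11.41 in Wt_S, against 11.53, 4.33 and 4.84 in Wt_G1. The median difference of the leukocyte markers was 1.13 in Wt and 1.06 in KO. The part of sex or of leukocytes in the shared directions was not tested. The wild-type difference was smaller in size on 180 of the 216, a count that describes probes chosen by their knockout values. Mest differed by -2.34 in the wild type, Dbp by 2.20, Nqo1 by 1.88 and Inhbb by 2.09, each of them called.

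No probe (0%) passed limma's test of the difference between the genotypes, while 184 had an unadjusted p under 0.05, and the smallest adjusted p was 0.134, for a probe without a symbol. Among named genes the smallest was that of Vip (adjusted p = 0.507), which read 5.05 and 4.98 in Wt_S, against 4.38, 4.53 and 5.16 in Wt_G1, not well above background on any of these 5. Grem1 differed by 2.47 in KO and by 0.58 in Wt, where it read 8.56 and 8.58 in Wt_S, against 7.11, 8.52 and 8.35 in Wt_G1. Mmp3 differed by -1.36 in KO and by -0.04 in Wt, where it read 11.73 and 11.76 in Wt_S, against 11.61, 11.74 and 12.02 in Wt_G1. Tgfbi differed by -2.20 in KO and -0.9997 in Wt, Cxcl15 by -2.19 and -0.66, and Tenm4 by -2.03 and -0.13. In size these differences were larger in the knockout, but the genes were chosen among those called there, which favours larger knockout differences. The wild-type difference was smaller in size on 180 of the probes called in the knockout, but not on all. Fgf13 differed by 1.07 in KO and 1.87 in Wt, and Cacna2d1 by -1.61 and -2.59, both picked after their values were seen. None of these genes was called as different between genotypes.

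Grem1, Tgfbi, Cxcl15 and Tenm4 were not among the 10 genes with the smallest p for that difference. Those of the 10 that are not given above were not called in the knockout. The muscle ubiquitin ligase Fbxo32 differed by 0.12 in KO and 1.49 in Wt, the acute-phase serpin Serpina3n by -0.48 and 1.19, and the smooth muscle myosin Myh11 by -0.33 and 1.41. The vasodilator peptide Adm differed by 0.31 in KO and -1.37 in Wt, and Tgif1 by 0.19 and -0.74. Cdsn, Mapk12 and Sema6d were not well above background on any KO_G1 array. Mapk12 had a bound of at least 1.11-fold higher in KO, without passing (adjusted p = 0.0865), Sema6d and Cdsn allow no fold in KO, and the Wt differences were -0.49 for Mapk12, -0.63 for Sema6d and 1.92 for Cdsn. Of these Fbxo32, Serpina3n, Myh11, Cdsn and Adm were called in the wild type. Replication genes had a median of 0.74 in KO and 0.64 in Wt, with 6 and 4 genes called higher.

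**Figure D5:**
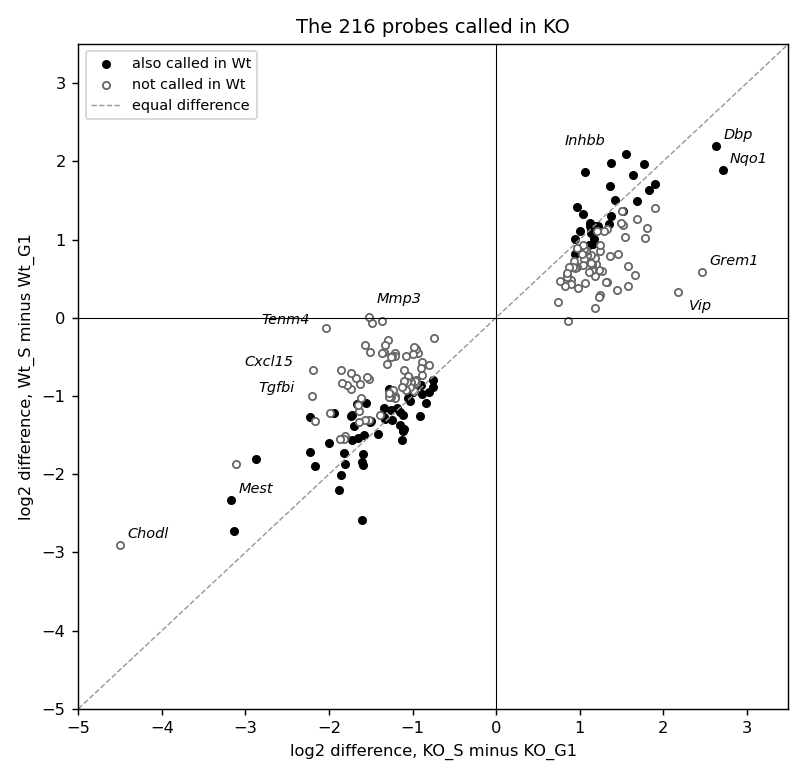
Log2 difference of S minus G1 in knockout cells (horizontal axis) and in wild-type cells (vertical axis) for the 216 probes called in the knockout; filled points were also called in the wild type, and the dashed line marks equal differences. On 214 probes both differences have the same sign, and Vip, Tenm4 and Mmp3 lie near 0 in the wild type.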

How the data were processed

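Total RNA of the 16 fibroblast cultures was labelled and read on Illumina bead arrays, processed by the authors with BeadStudio 3.0, per the submitters' processing notes. The deposited non-normalized file holds, per the file headers, an average intensity per probe and array and a detection p-value. The authors' value table, deposited as normalized intensity, was an alternative; its normalization method is not given in the sources used here. Intensities were corrected by normexp from the detection p-values with an offset of 16 and quantile normalized (neqc, limma 3.58.1, R 4.3.3), which gives the log2 values printed; they compare arrays for 1 probe and not probes with each other. A probe was tested if all arrays of some group, among the 6, had a detection p under 0.01, which 12078 probes met. A limma model with a mean per group was fitted to all 16 arrays, so the spread of the 2 KO_S arrays is shared with the other groups. Tests are two-sided, and a call is a Benjamini-Hochberg adjusted p under 0.05 over all probes tested. Values after ± are standard errors. The test script was checked on simulated data. The number of arrays limits the precision.

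Where no array of a group was above background, folds are limits against the lowest detected signal of each of those arrays, or the probe's own signal where that was higher. Symbols came from the platform annotation, 1 for 23978 of 25697 probes and none for 1719. Lists take 1 probe per gene, the brightest on average, for medians and count a gene as called on any probe. The members and lists were chosen with earlier results of these data known, and lists are described by counts and medians, with no test. Named genes are the 15 largest rises and falls among called genes, up to 4 called members a list in each direction or else the 2 with the smallest p, 14 cell cycle genes whatever their values, and the 10 genes with the smallest p for the difference between genotypes. Replicate numbers do not pair KO_S with KO_G1: number 2 differs in sex, and deviations from the group means correlated at -0.07 and -0.10. Fits without single arrays, with slide, sex or replicate number as a block, and with other scaling, background and filters were alternatives.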

Additional observations from a re-analysis of the deposited data

How the results depend on the processing

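For KO_S against KO_G1, 216 probes were called, and 382 without background correction, 383 from the authors' value table, 122 with slide as a block, 1 on slide 2 alone, 5329 with array weights, 2604 without KO_G1 replicate 1 and Wt_cycling replicate 3, 1 to 862 without single arrays, 396 with sex as a block (added after the data were seen), and 0 with limma on these 5 arrays alone, where 1167 had an unadjusted p under 0.05. Median scaling gave 71 higher and 172 lower. With the replicate block 23 were called, and the paired fit of numbers that do not pair these cultures says nothing of effect size. For Wt_S against Wt_G1, with 209, the counts were 44 on those arrays alone, 111 with slide as a block, 0 on slide 2 alone (944 at an unadjusted p under 0.05, limma), 7 with the replicate block, 4478 with array weights, 1827 without both arrays and 0 to 531 without single arrays. For the difference between genotypes, with 0 in limma (184 at an unadjusted p under 0.05), 1 was called with an offset of 50, without background correction and from the authors' table, 185 with array weights, 105 without both arrays, 0 to 1 without single arrays, and 0 with the replicate block within phase, which pairs KO and Wt of 1 number (deviations correlated at 0.0644 in S and 0.357 to 0.423 in G1; 306 at an unadjusted p under 0.05). Array weights gave KO_G1 replicate 1 a weight of 0.0431. The other settings run kept the first 2 counts within 1.5 times and the last at 0. Of 58 named probes that were called, 5 remained called without KO_S replicate 1, 1 without KO_S replicate 2, 58 without KO_G1 replicate 1 and 50 with sex as a block, none with a changed sign. On called probes, whose groups did not overlap, the sign in a fit that only leaves out arrays was fixed in advance. Of 27 list medians 22 kept their sign without KO_G1 replicate 1 and 21 with sex as a block. Signal near background leaves Mcm7, Vip, Nr1d2, Cdk5rap1, Wwc1, Tap1, Mapk12 and Rps19 with bounds only, and Per3, Sema6d and Cdsn with no fold in KO. The causes of these changes were not tested.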

Other observations

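Further called genes, outside the naming rule and chosen after their values were seen, included chromatin and transcription factors that were lower in S. Dot1l, a histone H3 methyltransferase, read 7.32 and 7.45 in KO_S, against 8.80, 8.71 and 8.67 in KO_G1 (-1.34 ± 0.23, adjusted p = 0.0112). Bach1, a repressor of antioxidant genes that include targets of Nrf2, read 7.06 and 7.31 in KO_S, against 9.05, 8.70 and 8.55 in KO_G1 (-1.58 ± 0.21, adjusted p = 0.00271). Socs3, an inhibitor of cytokine receptor signalling, read 9.87 and 9.99 in KO_S, against 11.58, 11.47 and 11.40 in KO_G1 (-1.55 ± 0.21, adjusted p = 0.00307). All 3 were also called lower in the wild type, at -1.27, -1.50 and -1.09. Smarca1, an ISWI remodelling ATPase, read 7.87 and 7.76 in KO_S, against 10.48, 8.94 and 9.23 in KO_G1 (-1.74 ± 0.39, adjusted p = 0.0445), with KO_G1 replicate 1 above the other G1 arrays, and the zinc finger factor Klf5 read 8.96 and 8.74 in KO_S, against 10.09, 10.77 and 10.48 in KO_G1 (-1.60 ± 0.35, adjusted p = 0.0381). Nfatc1, a calcium-regulated factor, was called lower on 2 probes, with differences of -1.28 and -1.21.

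Genes read by several concordant probes included Plpp1, a lipid phosphate phosphatase, which was called higher on 3 probes with differences of 1.52, 1.36 and 1.21. Sh3kbp1, an adaptor of receptor endocytosis, was called higher on 3 probes, of which ILMN_2881019 read 13.99 and 14.16 in KO_S, against 13.33, 12.40 and 12.38 in KO_G1. The fibroblast surface marker Thy1 read 13.76 and 13.68 in KO_S, against 12.46, 12.57 and 12.52 in KO_G1 (1.21 ± 0.27, adjusted p = 0.0432, or 0.0503 with sex as a block) and was the single fibroblast marker called.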
